A study of Homo sapiens with 6 samples.

Results

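Mitochondrial ribosomal proteins are the proteins of the ribosome that works inside mitochondria. The members described here are the 77 genes of the deposited expression table that are protein coding and carry a name of MRPL or MRPS followed by a digit, of 60504 genes in all and 19797 protein-coding ones. All 77 reached the minimum mean of 1 TPM used for testing; TPM is the share of a gene's transcripts in a library, scaled for gene length to a fixed total. They lie on 21 chromosomes. Of these genes, 50 encode proteins of the large subunit and 26 proteins of the small subunit. The remaining member, MRPS36, carries the family name but is a subunit of a mitochondrial dehydrogenase complex. MRPS30 and MRPS18A are named after the small subunit and belong to the large one, where they are counted here.

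The study compared HCC827, an established human lung adenocarcinoma line that carries an activating EGFR mutation, in 2 kinds of culture. In the 2D group, 1000000 cells were put into an uncoated plastic flask and grew as a monolayer for 4 to 6 days between passages. In the 3D group, 50000 cells were embedded in a droplet of growth factor reduced Matrigel, a gel of basement membrane proteins, and grew into tumoroids over 12 to 16 days. Both groups had the same medium, an RPMI medium with fetal bovine serum and antibiotics, and poly(A) RNA was read in 3 libraries a group. Culture time, seeding number and contact with the gel differ between the groups together with geometry, and their parts cannot be told apart. Whether the libraries stem from separate cultures is not stated, so p-values reflect only how far these libraries spread, and that spread may be technical. Sequencing depth cannot be read from TPM, so it is unknown here and counting intervals are left out.

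Mitochondria keep a small genome of their own, and its messenger RNAs encode core subunits of the respiratory chain and of ATP synthase. The mitoribosome translates these messages. Its ribosomal RNAs come from the mitochondrial genome, while all its proteins are encoded in the nucleus, made in the cytosol and imported. Many of these proteins have a counterpart in the bacterial ribosome, and others exist only in the mitochondrial ribosome.

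The labelled cell type was checked with marker genes. All 9 epithelial markers of lung adenocarcinoma averaged 1 TPM or more, with sums of 5403 to 9272 TPM in 3D and 8008 to 10427 TPM in 2D. The 6 fibroblast markers summed to 6.99 to 12.07 TPM in 3D and 2.10 to 2.96 TPM in 2D. COL3A1 was listed at 0 in every library, and COL1A1 was the only fibroblast marker that averaged 1 TPM or more. COL1A1 was called higher in 3D (5.26, 10.65 and 6.76 TPM against 2.02, 2.37 and 2.50 TPM; log2 fold change 1.33, limma adjusted p = 0.0170). KRT7, an epithelial keratin, was called lower (698 ± 172 against 1201 ± 31.4 TPM, SD, n = 3 each; limma adjusted p = 0.0355), the 1 call among the 9 epithelial markers. The 4 endothelial markers summed to at most 3.98 TPM and the 5 leukocyte markers to at most 3.85 TPM in any library. The part of these markers in the results below was not tested.

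Transcripts of mitochondrial ribosomal proteins mostly took a smaller share of the RNA in 3D than in 2D, by a modest amount, and few single genes passed the test. The estimate was negative, meaning lower in 3D, for 67 of 77 members and positive for 10. The median log2 fold change of TPM + 1 was -0.26 over the members, against 0.12 over the 15042 genes tested. Of the 77 members, 7 were called lower in 3D, none was called higher and 70 were not called (limma, Benjamini-Hochberg adjusted p under 0.05 over all tested genes). Over all tested genes 319, or 2.12%, were called lower and 1536, or 10.2%, were called higher. Without adjustment, 22 of 77 members had a limma p under 0.05, against 4727 of the 15042 genes tested, a similar share. MRPS6 was the only higher one among the 22. In bulk RNA, fewer cells of a type and less of an RNA per cell cannot be told apart, and a TPM is a share that moves when other transcripts move.

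The calls depended on the library set. None of the 77 members was called lower when 3D replicate 1, 3D replicate 2 or 2D replicate 2 was left out, and 1 was called without 2D replicate 1. In each of the first 3 cases 14 members had an unadjusted limma p under 0.05. The matching count over all genes was not taken in these fits. Calls over all genes fell in the same fits, to 25, 38 and 51 genes called lower of 15042 without those 3 libraries and to 76 without 2D replicate 1. All 7 called genes kept a negative estimate under each of the 19 alternative settings. Other scalings move the median of all genes from 0.12 to -0.01 (median-ratio scaling) or -0.04 (quantile normalization), and the split of all calls from 1536 higher and 319 lower to 971 and 612 or 869 and 576. The members' median minus that of all genes was -0.38 as reported, -0.40 with median-ratio scaling and -0.30 with quantile normalization, and 73 and 71 members were negative under these scalings.

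**Figure D1:**
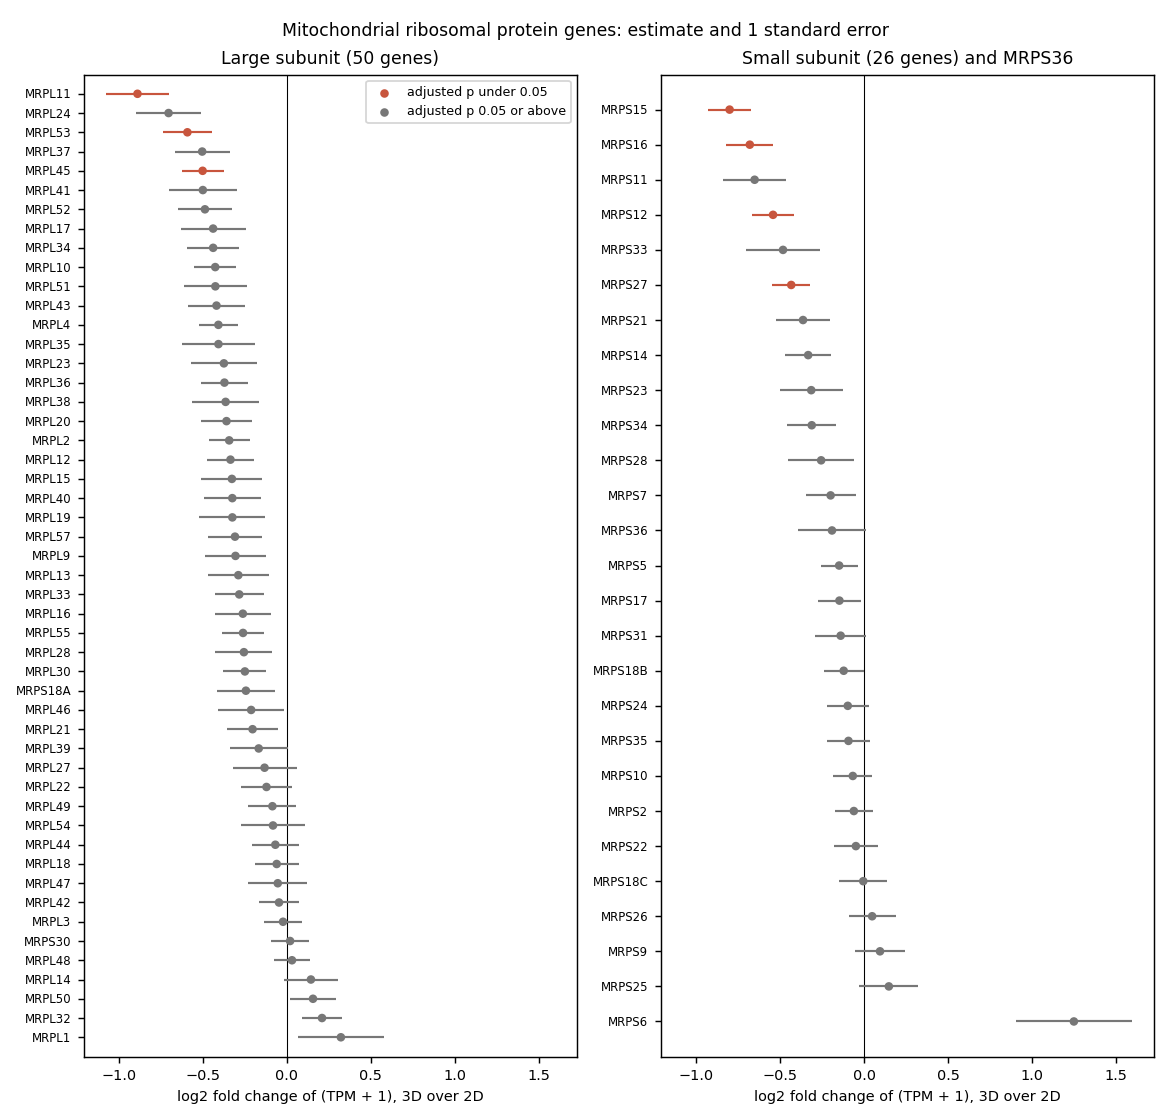
Log2 fold change of TPM + 1, 3D over 2D, for each of the 77 members (x axis; point, limma estimate; line, 1 standard error), with the 50 large subunit genes on the left and the 26 small subunit genes with MRPS36 on the right. Red marks the 7 genes with an adjusted p under 0.05; 67 points lie left of 0, and MRPS6 stands alone at 1.25.

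Groups of libraries that do not overlap were counted as a second description. In 24 members every 3D library was below every 2D library, and in 3 members, MRPS6, MRPL32 and MRPL48, every 3D library was above every 2D library; the estimate of MRPL48 turned negative with median-ratio scaling and quantile normalization. Over all tested genes the same counts were 1414, or 9.4%, and 4102, or 27.3%. The members were also more abundant than most genes, with mean levels of 16.0 to 279 TPM and a median of 68.3 TPM, against a median of 12.8 TPM over all tested genes. Of the 77 members, 60 fall in the top of 5 equal classes of the tested genes by abundance, which begins at 44.1 TPM. In that class the median log2 fold change over all genes was -0.03, 52.8% were negative and 3.95% were called lower. The median of its 60 members was -0.27 and 54 of them were negative. The called members described below lie in that class except MRPS27, with a mean of 42.0 TPM.

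In the small subunit, 4 of 26 members were called lower, 22 had negative estimates and the median log2 fold change was -0.15. The 4 called genes were MRPS15, MRPS16, MRPS12 and MRPS27. Coordinates of genes are those of GENCODE 29 on GRCh38.

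MRPS15 (ENSG00000116898, chr1:36455718-36464437, minus strand) encodes the counterpart of bacterial protein S15, which binds the small subunit's ribosomal RNA early in assembly. It measured 74.85, 65.50 and 77.86 TPM in the 3 libraries of 3D and 132.53, 134.03 and 115.54 TPM in those of 2D. The highest 3D library lay well below the lowest 2D library. The mean fell by 42.9%, with a log2 fold change of -0.80 (SE 0.13, adjusted p = 0.0117 by limma). This was the smallest p among the members, and 16 of 19 alternatives kept the call.

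MRPS16 (ENSG00000182180, chr10:73248843-73252693, minus strand) encodes the counterpart of bacterial S16, and mutations in it are a known cause of combined respiratory chain deficiency. Its levels were 45.98, 47.48 and 60.64 TPM in 3D against 84.73, 81.59 and 80.58 TPM in 2D. The groups were apart, with 3D replicate 3 nearest to the 2D libraries. The log2 fold change was -0.68 (SE 0.14, limma adjusted p = 0.0242), and 14 of 19 alternatives kept the call. MRPS16 overlaps DNAJC9 at its end on the same strand, and DNAJC9 had 13.9 ± 1.70 TPM in 3D and 13.7 ± 0.576 TPM in 2D (SD, n = 3 each).

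MRPS12 (ENSG00000128626, chr19:38930548-38933162, plus strand) encodes the counterpart of bacterial S12, a protein of the decoding centre where codon and anticodon are matched. It stood at 34.43, 34.11 and 40.56 TPM in 3D and at 55.41, 54.00 and 50.43 TPM in 2D, again without overlap. Its log2 fold change was -0.54 (SE 0.13, limma adjusted p = 0.0340), and the call held in 11 of 19 alternatives.

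MRPS27 (ENSG00000113048, chr5:72219409-72320646, minus strand) encodes a pentatricopeptide repeat protein that exists only in the mitochondrial ribosome. The libraries held 35.80, 34.24 and 36.62 TPM in 3D and 46.42, 48.96 and 49.75 TPM in 2D. Both groups were tight, with SDs of 1.21 TPM in 3D and 1.74 TPM in 2D (n = 3 each). The log2 fold change was -0.43 (SE 0.11, limma adjusted p = 0.0468), the smallest change among the called members and the one nearest to the threshold. Only 8 of 19 alternatives kept the call, and leaving out any single library lost it.

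**Figure D2:**
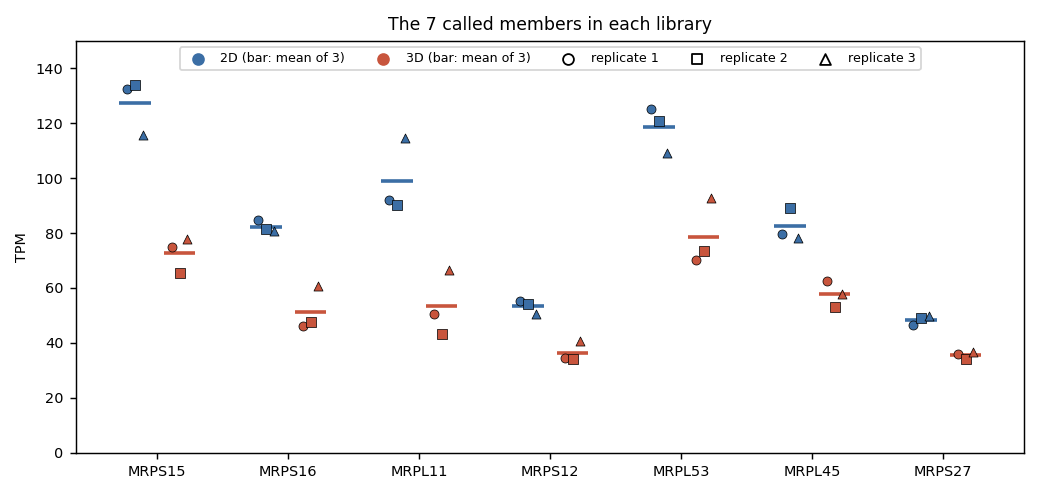
TPM (y axis, from 0) of the 7 called members in each of the 6 libraries; blue, 2D; red, 3D; the marker shape gives the replicate number and each bar the mean of 3. No 3D point reaches a 2D point of the same gene; in MRPL53 the highest 3D value is 92.59 TPM and the lowest 2D value 109.30 TPM.

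In the large subunit, 3 of 50 members were called lower, 44 had negative estimates and the median log2 fold change was -0.30. The called genes were MRPL11, MRPL53 and MRPL45.

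MRPL11 (ENSG00000174547, chr11:66435075-66466738, minus strand) encodes the counterpart of bacterial L11, which sits at the base of the stalk that recruits translation factors. Its values were 50.49, 43.40 and 66.66 TPM in 3D and 92.08, 90.15 and 114.72 TPM in 2D. Replicate 3 was the highest library of each group, and the groups did not overlap. The mean fell by 45.9%, and the log2 fold change of -0.89 (SE 0.19, limma adjusted p = 0.0249) was the lowest estimate of all 77 members. This call held in 14 of 19 alternatives. The other stalk proteins, MRPL10 and MRPL12, also had 3D below 2D in every library without a call. MRPL10 had a mean of 47.0 ± 1.02 TPM in 3D and 63.7 ± 6.27 TPM in 2D (SD, n = 3 each; limma adjusted p = 0.0629). MRPL12 had 71.9 ± 10.9 TPM and 90.4 ± 4.67 TPM (SD, n = 3 each; limma adjusted p = 0.153).

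MRPL53 (ENSG00000204822, chr2:74471958-74473322, minus strand) encodes a protein found only in the mitochondrial ribosome. It measured 70.26, 73.27 and 92.59 TPM in 3D and 125.16, 120.85 and 109.30 TPM in 2D. The log2 fold change was -0.59 (SE 0.15, limma adjusted p = 0.0391), and 11 of 19 alternatives kept the call. CCDC142 overlaps MRPL53 on the same strand, and it had 7.49 ± 1.38 TPM in 3D and 7.85 ± 1.43 TPM in 2D (SD, n = 3 each).

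MRPL45 (ENSG00000278845, chr17:38297023-38323218, plus strand) encodes a protein near the exit tunnel that attaches the mitoribosome to the inner membrane. Its levels were 62.67, 53.24 and 57.92 TPM in 3D and 79.66, 89.25 and 78.25 TPM in 2D. The groups were apart, and the log2 fold change was -0.50 (SE 0.13, limma adjusted p = 0.0412). Its call held in 10 of 19 alternatives. OXA1L, the inner membrane insertase that receives the new proteins, had 147 ± 19.2 TPM in 3D and 207 ± 37.9 TPM in 2D (SD, n = 3 each; limma adjusted p = 0.111).

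Several members lay just outside the threshold. MRPL24, the counterpart of bacterial L24 near the exit tunnel, had 68.73, 52.53 and 87.72 TPM in 3D and 110.23, 121.65 and 103.88 TPM in 2D. Its log2 fold change of -0.70 was the third lowest, but the 3D libraries were spread widely and the adjusted p was 0.0534 (SE 0.19, limma). MRPS11, MRPL4 and MRPL10 followed among the negative members, with limma adjusted p-values of 0.0607, 0.0608 and 0.0629 and log2 fold changes of -0.65, -0.41 and -0.43.

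The most abundant members were not called. MRPL51, the most abundant large subunit gene, measured 212.11, 205.91 and 298.08 TPM in 3D and 275.17, 314.24 and 365.86 TPM in 2D, so the groups overlapped. MRPL52 (log2 fold change -0.49, adjusted p = 0.0854 by limma) and MRPL37 (-0.50, adjusted p = 0.0834 by limma) each had all 3D libraries below all 2D libraries. All 3 encode proteins found only in the mitochondrial ribosome. The most abundant small subunit genes, all with a bacterial counterpart, differed less. MRPS28 had 224 ± 57.9 TPM in 3D and 261 ± 6.73 TPM in 2D, MRPS24 had 117 ± 10.6 and 125 ± 7.15 TPM, and MRPS17 had 113 ± 6.44 and 125 ± 13.0 TPM (SD, n = 3 each), with overlapping groups in each case.

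Members were also counted by origin. Of the 46 with a counterpart, 4 were called lower and 41 were negative, with a median log2 fold change of -0.27, and in 18 every 3D library was below every 2D library. Of the 30 without one, 3 were called lower and 25 were negative, with a median of -0.23, and in 6 every 3D library was below every 2D library. An unadjusted limma p under 0.05 was found in 15 of the 46 and 7 of the 30, against 4727 of the 15042 genes tested. The difference between these classes was not tested. The 3 genes named MRPS18 illustrate both classes, since each encodes a relative of bacterial S18 and only the product of MRPS18C takes the place of S18 itself. MRPS18A, in the large subunit, had a log2 fold change of -0.24, MRPS18B of -0.12 and MRPS18C of -0.01, none of them called. MRPS30, a large subunit protein, was at 43.2 ± 2.52 TPM in 3D and 42.5 ± 1.04 TPM in 2D (SD, n = 3 each), with overlapping groups. MRPS36 measured 102 ± 29.2 TPM in 3D and 114 ± 6.10 TPM in 2D (SD, n = 3 each; limma adjusted p = 0.551).

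Of the members with positive estimates, 3 have the highest values, MRPS6, MRPL1 and MRPL32. MRPL1, the counterpart of bacterial L1 at the exit side for spent transfer RNA, had 44.67, 29.08 and 62.19 TPM in 3D and 31.30, 34.16 and 38.16 TPM in 2D. The 3D libraries lay on both sides of the 2D libraries (log2 fold change 0.32, SE 0.26, limma adjusted p = 0.423). MRPL32, a protein cut to its mature form by a mitochondrial protease before it joins the ribosome, had 86.57, 82.45 and 94.79 TPM in 3D and 74.22, 79.48 and 73.83 TPM in 2D. Its groups were apart by a small gap, and the log2 fold change of 0.21 was not called (SE 0.12, limma adjusted p = 0.264).

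MRPS6 (ENSG00000243927, chr21:34073224-34143034, plus strand) encodes the counterpart of bacterial S6, and it went the other way from most members. It stood at 172.98, 89.65 and 59.14 TPM in 3D and at 36.53, 40.71 and 44.21 TPM in 2D. Every 3D library was above every 2D library, and the 3D libraries differed widely among themselves. The log2 fold change was 1.25 (SE 0.35, limma adjusted p = 0.0554), outside the threshold. Leaving out 3D replicate 3, the lowest of the 3, brought it inside it, as did the replicate block, a filter at 5 TPM and leaving out both libraries numbered 3, and the adjusted p ranged from 0.0169 to 0.152 over the alternatives.

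MRPS6 lies over another gene. SLC5A3 encodes a sodium and myo-inositol cotransporter, and RefSeq places its start at the same base as that of MRPS6, chr21:34073578 on GRCh38.p14, on the same strand. SLC5A3 had 42.21, 38.89 and 8.04 TPM in 3D and 5.42, 5.26 and 4.07 TPM in 2D. As in MRPS6, replicate 3 was the lowest 3D library and all 3D libraries were above all 2D libraries. The log2 fold change of SLC5A3 was 2.09 (SE 0.55, limma adjusted p = 0.0489), a call that was lost in 14 of 19 alternatives. The submitters' processing notes name RSEM but not the annotation release. How reads were divided between these 2 overlapping genes therefore cannot be retraced here, and their separate levels are uncertain. The 150 bases before the shared start are shown because they stand before both genes. They run from chr21:34073428-34073577 on the plus strand of GRCh38.p14 (RefSeq), and capitals mark each match to the GC box letters GGGCGG on either strand:
MRPS6 and SLC5A3: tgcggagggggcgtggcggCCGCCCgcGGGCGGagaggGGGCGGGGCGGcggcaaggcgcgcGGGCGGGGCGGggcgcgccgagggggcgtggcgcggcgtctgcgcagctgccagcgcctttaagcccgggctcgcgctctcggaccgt
The stretch is 84% G and C and holds 6 matches, some of which share a base with the next.

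MRPS12 also has a close neighbour, and here both genes were called lower. SARS2 encodes the mitochondrial seryl-tRNA synthetase, which loads serine onto its transfer RNAs for the same ribosome, and it is transcribed away from MRPS12 on the other strand. SARS2 had 7.58, 8.68 and 10.20 TPM in 3D and 17.56, 16.84 and 19.21 TPM in 2D, without overlap. Its log2 fold change was -0.95 (SE 0.15, limma adjusted p = 0.0108), and the call was lost when 3D replicate 1 or 3D replicate 2 was left out. In RefSeq the starts of these genes are 180 bases apart. In GENCODE 29 the longest forms of both genes overlap, so without strand in the counting some reads could fall to either gene, and the strand setting is not given in the sources used here. The 180 bases between the RefSeq starts, chr19:38930764-38930943 of GRCh38.p14 on the MRPS12 strand, are shown because they separate both genes. Capitals mark matches to the CCAAT box letters CCAAT and to the GC box:
MRPS12 and SARS2: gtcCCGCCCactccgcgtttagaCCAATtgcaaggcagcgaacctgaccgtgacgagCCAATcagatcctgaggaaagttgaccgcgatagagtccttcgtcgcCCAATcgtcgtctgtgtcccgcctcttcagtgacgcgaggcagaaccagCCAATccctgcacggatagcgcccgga
The stretch holds 4 matches to CCAAT and 1 to the GC box. CCAAT or its reverse complement occurs in the 300-base promoter windows of 29.4% of the members with a window and of 37.0% of expressed coding genes, and the GC box letters in 60.3% and 70.4%.

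**Figure D3:**
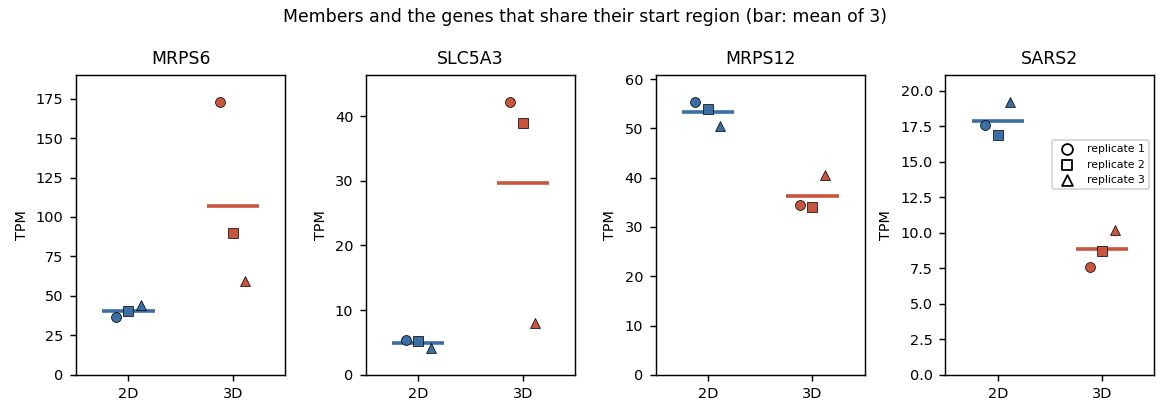
TPM (y axes, each from 0 and with its own scale) of MRPS6 and SLC5A3, which share a RefSeq start, and of MRPS12 and SARS2, which start back to back; marker shapes give the replicate number and bars the mean of 3. Points of 3D lie above those of 2D for the first pair and below for the second, with 3D replicate 3 lowest in MRPS6 and SLC5A3.

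Starts close to that of a gene on the opposite strand were frequent in this family. They were taken at the outer end of each gene, so overlapping pairs were counted too, such as MRPS18B and PPP1R10 with starts 903 bases apart. MRPL11 was counted beside PELI3 from an outer end at chr11:66466738, while its RefSeq start lies next to chr11:66438849. With GENCODE 29 and a window of 1000 bases, 26 of 77 members, or 33.8%, had an expressed coding gene starting nearby on the opposite strand, against 1970 of 12277 expressed coding genes, or 16.0%. MRPS11 and MRPL46 are neighbours of each other. Of the 24 neighbours that are not members, SARS2 was called lower and none was called higher, 15 were negative and their median log2 fold change was -0.14. Neighbours in respiratory complex I were NDUFS6 beside MRPL36 (log2 fold changes -0.56 and -0.37) and NDUFB5 beside MRPL47 (-0.38 and -0.05), and none of these 4 genes was called. PSMA2, a proteasome subunit, had -0.27 beside 0.21 for MRPL32, opposite in sign, and neither was called.

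Known regulators of nuclear genes for mitochondria bind short motifs, which were searched in RefSeq promoter windows from 250 bases before to 50 bases after each start on GRCh38.p14. A window was found for 68 of 77 members and for 9955 expressed coding genes. The ETS letters bound by GABP, CCGGAAG, occurred on either strand in 28 members, or 41.2%, against 20.2% of coding genes. The YY1 letters AAGATGGC occurred in 20 members, or 29.4%, against 5.61%. The NRF1 letters GCGCATGC occurred in 6 members, or 8.82%, against 5.62%, and the E-box CACGTG, which MYC binds, in 6, or 8.82%, against 10.2%. No ETS match shared a base with a YY1 match. Among the 68 members with a window, the median log2 fold change was -0.27 with an ETS match and -0.18 without one, and -0.21 with a YY1 match and -0.26 without one. These differences were not tested.

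The called members with ETS letters are MRPS16, MRPS12 and MRPL53, shown with 30 bases around each match, the match in capitals and each read in the direction of its gene (RefSeq, GRCh38.p14):
MRPS16, chr10:73252621-73252650, minus strand: cggatcatccgCTTCCGGagtcgaggtttt
MRPS12, chr19:38930928-38930957, plus strand: acggatagcgcCCGGAAGaggctagaagct
MRPL53, chr2:74472734-74472763, minus strand: gcagccggcggCCGGAAGtctatcccgcag
MRPL53, chr2:74472662-74472691, minus strand: ctgcacgagttCTTCCGGggcggaggtcac
The match in MRPS12 begins 5 bases before the start and runs over it. In MRPL53 the first match begins 72 bases before the start.

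Examples of YY1 letters close to a start are shown in the same way for MRPL45 and MRPS27:
MRPL45, chr17:38297170-38297199, plus strand: tttgcgggaacAAGATGGCagcccccatac
MRPS27, chr5:72320206-72320235, minus strand: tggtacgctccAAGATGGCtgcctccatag
The matches in MRPL45 and MRPS27 lie 14 and 17 bases after their starts. A match is a description of the letters and not a bound site. MRPS15 and MRPL11, with the lowest estimates, had neither set of letters in their windows.

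Summed over genes, both subunits were lower in 3D. The 50 large subunit genes summed to 3284, 2918 and 3847 TPM in 3D and to 4099, 4122 and 4070 TPM in 2D, means of 3350 ± 468 and 4097 ± 26.0 TPM (SD, n = 3 each) with a ratio of 0.818. The 26 small subunit genes summed to 1918, 1627 and 1999 TPM in 3D and to 2064, 2129 and 2074 TPM in 2D, with a ratio of the means of 0.885. No 3D sum reached a 2D sum in either subunit. The 2D sums agreed closely, whereas the 3D sums differed between libraries. The large subunit sum was 1.71, 1.79 and 1.92 times the small subunit sum in 3D and 1.99, 1.94 and 1.96 times in 2D. The small subunit sums include MRPS6, of uncertain level, at 172.98, 89.65 and 59.14 TPM in 3D and 36.53, 40.71 and 44.21 TPM in 2D. The part of MRPS6 in these ratios was not tested. No test was run on these sums, since the smallest p that an exact permutation of 3 and 3 libraries can reach is 0.1.

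**Figure D4:**
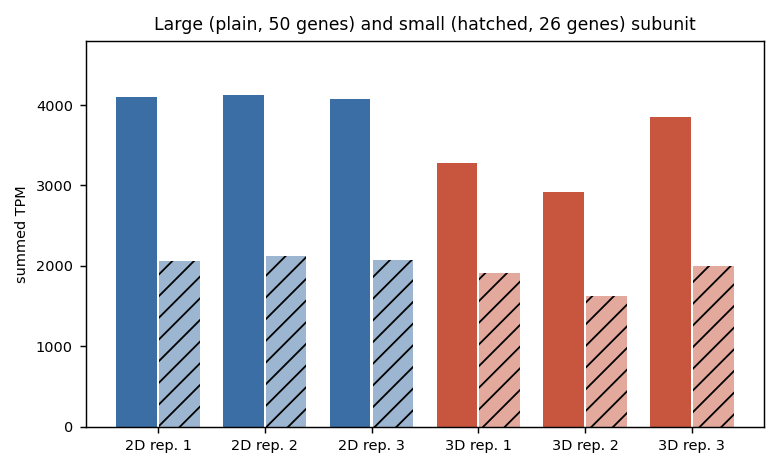
Summed TPM (y axis, from 0) of the large subunit (plain bars, 50 genes) and the small subunit (hatched bars, 26 genes) in each of the 6 libraries; blue, 2D; red, 3D. The 2D bars are level at 4070 to 4122 TPM for the large subunit, and the 3D bars run from 2918 to 3847 TPM.

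The members moved together between 3D libraries. In 3D replicate 3, 72 of 77 members were above their own 3D mean, with a median deviation of 0.18 on the log2 scale. In 3D replicate 2, 6 of 77 were above it, with a median of -0.16, and replicate 1 lay between with 39 above and a median of 0.01. The 2D libraries had medians of -0.01, 0.01 and -0.03. Replicate 3 was the highest 3D library for 63 members and replicate 2 the lowest for 59. Over all tested genes the medians of the 3D libraries were -0.03, 0.02 and -0.00, so the median of all genes did not share the pattern. Genes like the members in abundance or transcript length were not compared in this way. Genes named as complex I subunits, another set of nuclear genes for mitochondria, had 36 of 38 above the mean in 3D replicate 3 and 2 of 38 in replicate 2. Cytosolic ribosomal proteins had 65 of 77 above it in replicate 3 and 13 of 77 in replicate 2. Without 3D replicate 3, 11 members were called lower and 1 higher, and over all genes 553, or 3.68%, were called lower and 1610 higher. Without both libraries numbered 3, 24 members were called lower and 1 higher, with a median log2 fold change of -0.38, while 1239 of all genes, or 8.24%, were called lower and 2289 higher.

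**Figure D5:**
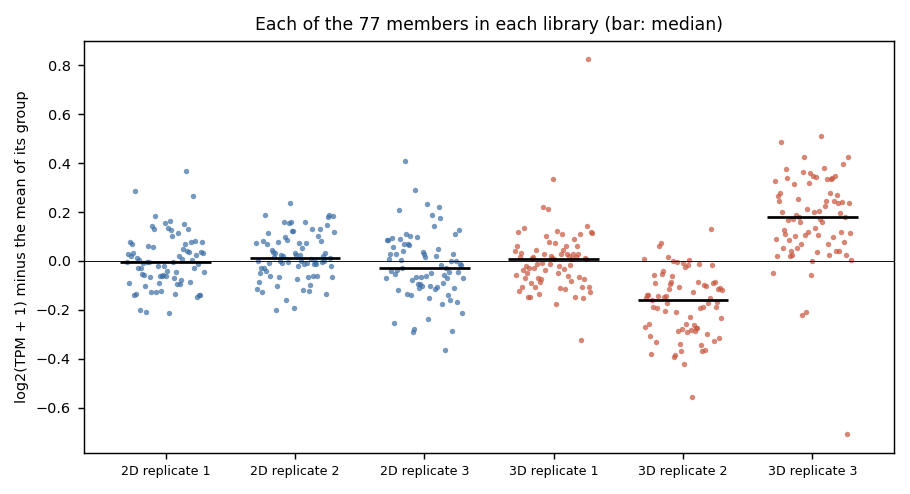
Each point is 1 of the 77 members in 1 library, as log2(TPM + 1) minus the mean of its group (y axis); black bars are medians. The 3D libraries are set apart from each other, at medians of 0.01, -0.16 and 0.18, and the 2D libraries lie within 0.03 of 0.

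The messages that the mitoribosome translates had estimates of the opposite sign. All 13 messenger RNAs of the mitochondrial genome had positive estimates, with a median log2 fold change of 0.36, and none was called; MT-CO2 and MT-ND6 turned negative with median-ratio scaling. Their sum was 146798, 154737 and 96247 TPM in 3D and 98401, 94900 and 126279 TPM in 2D, so the groups overlapped. None of the 13 was above its 3D mean in replicate 3, the library in which 72 members were above theirs. MT-CO1, the catalytic subunit of respiratory complex IV, had 27616 ± 5312 TPM in 3D and 23376 ± 1473 TPM in 2D, and MT-CO2, another core subunit, had 15492 ± 3254 and 14014 ± 2180 TPM (SD, n = 3 each).

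Partner genes of mitochondrial gene expression were read from 6 lists of 96 nuclear genes, of which 94 were tested. Of the 94, 2 were called lower and 4 higher. Over all tested genes 2.12% were called lower and 10.2% higher, and the counts of each list below stand beside these shares. The 5 mitoribosomal proteins that carry no MRP number, DAP3, PTCD3, CHCHD1, AURKAIP1 and GADD45GIP1, were all negative with a median of -0.39 on the log2 scale, and none was called. DAP3, a GTP-binding protein of the small subunit, had 138 ± 9.72 TPM in 3D and 166 ± 21.5 TPM in 2D (SD, n = 3 each; limma adjusted p = 0.249). AURKAIP1, also of the small subunit, had 87.7 ± 13.6 TPM in 3D and 120 ± 9.74 TPM in 2D (SD, n = 3 each; limma adjusted p = 0.0806). ICT1, now named MRPL58 and a peptide release protein of the large subunit, is outside the naming rule under the older symbol, and it had 45.0 ± 10.5 TPM in 3D and 49.8 ± 1.12 TPM in 2D (SD, n = 3 each; limma adjusted p = 0.543).

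Of 26 genes for assembly of the mitoribosome and modification of its RNA, 1 was called lower, 1 higher and 18 were negative. RPUSD3, a pseudouridine synthase relative that acts on the large ribosomal RNA, measured 21.80, 19.50 and 24.53 TPM in 3D and 40.85, 33.56 and 29.52 TPM in 2D (log2 fold change -0.63, SE 0.16, limma adjusted p = 0.0446). MTERF4, which brings an RNA methyltransferase to the large subunit, measured 37.41, 36.58 and 40.89 TPM in 3D and 26.53, 28.17 and 25.98 TPM in 2D (log2 fold change 0.49, SE 0.12, limma adjusted p = 0.0370). Groups were apart in both genes, and both calls were lost in several alternatives, including when 3D replicate 1 or 3D replicate 2 was left out. Of 15 translation factors none was called, and 11 were negative with a median of -0.14. An unadjusted limma p under 0.05 was found in 3 of the 15, against 4727 of the 15042 genes tested. TUFM, the elongation factor that delivers loaded transfer RNA, had 161 ± 5.41 TPM in 3D and 225 ± 34.5 TPM in 2D with groups apart (SD, n = 3 each; limma adjusted p = 0.0680). Of 20 mitochondrial aminoacyl-tRNA synthetases, SARS2 was the only call, and 14 were negative with a median of -0.09.

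Of 20 genes that make and process mitochondrial RNA, 2 were called higher, where 10.2% of all tested genes were, and none lower. Positive estimates were found in 13, and the median log2 fold change was 0.06, below the 0.12 of all tested genes. TRMT10C, a subunit of the enzyme that cuts transfer RNAs out of mitochondrial transcripts, measured 61.95, 49.92 and 51.10 TPM in 3D and 30.83, 31.43 and 32.28 TPM in 2D (log2 fold change 0.76, SE 0.13, limma adjusted p = 0.0141). FASTKD5, which matures messages that no transfer RNA flanks, measured 25.67, 26.80 and 21.67 TPM in 3D and 16.76, 13.81 and 14.26 TPM in 2D (log2 fold change 0.69, SE 0.14, limma adjusted p = 0.0253). Both calls were lost when 3D replicate 1 or 2D replicate 2 was left out. POLRMT, the mitochondrial RNA polymerase, had 20.0 ± 3.75 TPM in 3D and 19.4 ± 4.15 TPM in 2D, and TFAM, which packs and activates the mitochondrial genome, had 41.6 ± 5.74 and 41.6 ± 7.55 TPM (SD, n = 3 each).

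Of 10 listed regulators of nuclear genes for mitochondria, 8 were tested, 1 was called higher and 7 were positive. MYC, a transcription factor with ribosome and mitochondrial genes among its targets, measured 349.24, 312.39 and 289.41 TPM in 3D and 105.35, 90.03 and 105.86 TPM in 2D. The groups lay far apart, the log2 fold change was 1.65 (SE 0.13, limma adjusted p = 0.000811), and each of the 19 alternatives kept the call. The other regulators were not called. NRF1 had 7.16 ± 0.913 TPM in 3D and 6.82 ± 1.21 TPM in 2D (limma adjusted p = 0.819), and GABPA, the DNA-binding subunit of GABP, had 11.5 ± 1.22 and 9.12 ± 0.904 TPM (SD, n = 3 each; limma adjusted p = 0.199). PPRC1, a coactivator of NRF1 and GABP, had 17.2 ± 3.90 TPM in 3D and 11.3 ± 1.86 TPM in 2D (SD, n = 3 each; limma adjusted p = 0.109).

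A pair of other large sets of nuclear genes had medians of similar size. Of 77 tested cytosolic ribosomal proteins, 2 were called lower and none higher, where 2.12% and 10.2% of all tested genes were. An unadjusted limma p under 0.05 was found in 14 of the 77, against 4727 of the 15042 genes tested. The estimates of 74 were negative, with a median of -0.26. Of 38 genes named as complex I subunits, 4 were called lower and 1 higher, and 34 were negative with a median of -0.29. These were taken by a name of NDUFA, NDUFB, NDUFC, NDUFS or NDUFV followed by a digit, NDUFA4 and NDUFA4L2 included. Whether each product belongs to complex I was not checked. No test of a difference between these sets was made. How many reads the members share with other copies of their sequences was not measured. The 73 pseudogenes with an MRPL or MRPS name summed to 5.74 to 8.75 TPM a library, or 0.0918% to 0.176% of the members' sum. Coding genes averaging 1 TPM or more overlapped 9 members on the same strand and 25 on the other strand, and the levels of these members are uncertain to that extent.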

How the data were processed

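RNA of 3 libraries of 3D culture and 3 of 2D culture was measured by single-end sequencing of 75 nt reads from directional poly(A) libraries, made from RNA with an integrity number above 9, per the labels' protocols. The authors deposited TPM per gene and library, rounded to 2 decimals. The submitters' processing notes name cutadapt 2.3, STAR 2.7.0d and RSEM 1.3.1 and the build hg38. The annotation release was not given in the sources used here, nor was the strand setting. TPM keeps no depth, so the precision comes only from the spread between libraries.

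Groups came from the sample titles. Genes averaging 1 TPM or more (15042) were tested two-sided on log2(TPM + 1), whose fold changes understate those of low genes, with limma 3.58.1 (lmFit, eBayes with a trend; R 4.3.3) as 3D against 2D without a covariate, adjusted by Benjamini-Hochberg over all tested genes, with a threshold of 0.05. The fit was tested on simulated data. It called 51 of 96 genes with a log2 change of 1, 85 of 93 with a change of 2, and 8 of 14582 unchanged genes. Changes as small as the members' median were not simulated. The simulated spread was drawn separately for each gene and library, so shifts shared by many genes of a library were absent. Far fewer genes were changed than were called in the data. These rates may therefore not carry over to the data. The 19 alternatives were pseudocounts of 0.1 and 5, other filters, scalings and eBayes options, leaving out abundant genes or genes of the mitochondrial genome, a length and GC correction, a replicate block, both libraries numbered 3 left out, and each library left out. Members, lists, settings and named genes were chosen with earlier results of these data known. Text names called members, the 3 most abundant per subunit, the 3 lowest and 3 highest estimates, fixed members, and up to 3 called or otherwise the 2 most abundant genes per partner list. MRPL4, MRPS11, MRPL48, MRPS36, MT-ND6, COL1A1, COL3A1, KRT7, overlapping and neighbouring genes and the small partner list were added after their values were seen. Older symbols were matched through RefSeq names. Gene coordinates came from GENCODE 29, promoter letters from RefSeq on GRCh38.p14; motif letters were chosen after the values were seen, and the CCAAT and GC boxes after the printed stretches were read. Figures used matplotlib 3.10.9 in Python 3.11.15. One sequence is not reported here.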

Additional observations from a re-analysis of the deposited data

How the results depend on the processing

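The count of members called lower, 7 as reported, was 1 with no filter, 14 with median-ratio scaling, 3 with no trend, 3 with the replicate block and 24 without both libraries numbered 3, and it ran from 0 to 11 when single libraries were left out. Over all tested genes, 319 were called lower as reported and 86, 612, 260, 395 and 1239 in the first 5 of these settings, and 25 to 553 with single libraries left out. Members called higher, 0 as reported, were 1 (MRPS6) with a filter at 5 TPM, with the replicate block and without both libraries numbered 3, and 0 to 1 with single libraries left out. Over all tested genes, 1536 were called higher as reported and 1217, 1479 and 2289 in these settings in turn. With single libraries left out, 331 to 1610 genes were called higher. Nuclear partner genes called lower, 2 as reported, were 1 with no filter, no trend, the replicate block or the length and GC correction, 8 with median-ratio scaling, 4 with quantile normalization, 9 without both libraries numbered 3, and 0 to 4 with single libraries left out. Those called higher, 4 as reported, were 2 with no filter, where 729 of all 33924 tested genes were, and 1 to 4 with single libraries left out. The median log2 fold change of the members was -0.41 with median-ratio scaling, -0.38 without both libraries numbered 3 and -0.39 to -0.16 with single libraries left out. The log2 ratio of summed TPM was -0.44 (large) and -0.33 (small) with median-ratio scaling, against -0.29 and -0.18, and -0.40 to -0.20 and -0.24 to -0.09 with single libraries left out. The sign of the estimate turned in at least 1 alternative in 21 members, the farthest of which was reported at 0.19 from 0, among them MRPS36 (without 3D replicate 2) and MRPL48 (both scalings). Of the members named by rule, 3 did so, and POLRMT, TFAM, NRF1 and MT-CO2 did too. MRPS24 was 0.10 with the length and GC correction. MRPS30, 0.02 as reported, was -0.13 with median-ratio scaling, -0.066 with quantile normalization, -0.030 with the length and GC correction, -0.0051 without both libraries numbered 3 and -0.017 to 0.065 with single libraries left out. MRPS18C, -0.01 as reported, was 0.016 without the mitochondrial genome, 0.00059 with the length and GC correction and -0.11 to 0.11 with single libraries left out. The causes were not tested. For the replicate block, same-numbered libraries had correlations of deviations of 0.10, 0.04 and 0.19. Replicates 2 and 3 of 3D correlated best with the 2D library of the same number, and 3D replicate 1 with 2D replicate 2 (0.13). With 3 libraries a group, these values cannot decide whether the numbers mark pairs. The labels do not say either, so the main fit did not pair them.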
